A study of Mus musculus with 9 samples.

Results

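Mouse tibialis anterior muscle that had received siRNA construct 7 against Ubr4 was compared with the same muscle after siRNA construct 5 against Ubr4. Both constructs are meant to lower the same transcript, so the question was what separates them. The comparison rests on 6 of the study's 9 RNA-seq libraries, 3 with each construct, chosen by their titles. The remaining 3 libraries came from muscle given a non-targeting siRNA and are called controls here. They did not enter the difference between the constructs, but they entered the filter on mean level, the estimate of spread, the scalings and the leading axis of variation, and they serve as a reference level. All 9 muscles were from C57BL/6 mice aged 6 months, the siRNA was delivered by electroporation, and total RNA was extracted with Trizol. The labels name no other treatment, genotype or transgene. They do not say whether different animals gave the 3 libraries of a group, and p-values therefore speak only of the variation among these libraries. The sequences of the siRNAs were not analysed here.

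Ubr4 is a very large ubiquitin ligase that recognises proteins by destabilising residues at their N-terminus, the N-degron pathway, and it helps to send such proteins to the proteasome. An siRNA guides the Argonaute complex to transcripts with a complementary site, which are then degraded. A given siRNA can also lower transcripts that share only its seed with the target, so studies commonly use several siRNAs against the same gene. Electroporation passes current through the muscle, and a whole muscle holds fibres together with fibroblasts, tendon cells, vessels, nerve and immune cells. In bulk RNA, fewer cells of a type and less RNA per cell cannot be told apart.

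Values are FPKM as the authors deposited them, which are fragments per length of gene, scaled to the mapped reads of each library. The depth implied by the smallest steps in FPKM ranged from 29312121 to 45563543 reads per library, so a single read in a gene of 1 kilobase was worth 0.0219 to 0.0341 FPKM. Log2(FPKM + 1) values of construct 7 and construct 5 libraries correlated across genes at 0.978 to 0.991, against 0.985 to 0.993 for libraries of the same group; genes are not independent replicates. On the leading axis of variation, which held 39.7% of the variance, construct 5 libraries scored 23.8, 16.2 and 8.98, construct 7 libraries scored −14.3, 2.26 and −9.94, and controls scored between −10.7 and −6.46. All construct 5 libraries lay above all others on that axis, while of the construct 7 libraries 1 lay within the control range, 1 below it and 1 between the controls and construct 5. Fast-fibre sarcomere genes, which mark the labelled muscle, summed to between 61650 and 77990 FPKM in the 9 libraries.

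The target itself did not separate the constructs beyond the spread between libraries. Ubr4 stood at 7.82, 10.3 and 9.09 FPKM in the controls. It stood at 3.61, 3.80 and 2.73 with construct 5, and at 2.25, 2.58 and 3.07 with construct 7. Every library with a construct was below every control, and the ranges of the constructs overlapped. The mean was 37.3% of the control mean with construct 5 and 29.1% with construct 7. The log2 difference of construct 7 minus construct 5 was −0.27 ± 0.13 (SE), with a 95% interval from −0.56 to 0.02 and an adjusted p of 0.246 by limma. An exact two-sided permutation test on these 6 values gave p = 0.2, and 0.1 is the smallest that 3 libraries against 3 allow. The interval includes a remaining Ubr4 level about equal with both constructs as well as one clearly lower with construct 7.

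Of 10794 genes with a mean of at least 1 FPKM over the 9 libraries, 132 (1.22%) passed an adjusted p under 0.05 in limma's test between the constructs. With construct 7, 16 genes (0.148%) were higher and 116 (1.07%) were lower. In all 132 the 3 libraries with construct 7 did not overlap the 3 with construct 5. Such separation was frequent over all tested genes, at 2744 (25.4%), the 132 included. Of these, 2418 (22.4% of all tested genes) were lower with construct 7 and 326 (3.02%) higher. The lower genes differed by −0.34 to −2.37 on the log2 scale, with a median of −0.70, and 22 of them passed −1. The higher genes differed by 0.34 to 0.79, with a median of 0.49, and none passed 1.

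The whole distribution was shifted, which bears on that split. The median log2 difference of all tested genes was −0.10, and 8146 (75.5%) lay below 0. Median-ratio scaling, which divides each library by the median ratio of its genes to their typical level, brought the median to −0.0015. On that scale 79 genes were called, 38 (0.352%) higher and 41 (0.38%) lower with construct 7. They included all 16 genes called higher and 41 of the 116 called lower on the deposited scale, and all 116 kept a difference below 0. Separation of the libraries was then about as frequent in both directions, at 11.5% higher and 9.98% lower.

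The number of called genes rested on single libraries. Without library 1 of construct 7 it fell to 3, Csrp2, Dync1h1 and Ube2e1, and without library 3 to 4, the same genes and Arhgap10. Without library 2 of construct 7 it was 387. Leaving out construct 5 libraries 1, 2 and 3 gave 17, 38 and 186 genes, and leaving out controls 1, 2 and 3 gave 55, 53 and 52. Dync1h1 and Ube2e1 were called in every one of the 27 alternative settings that were run, and no other described gene was. All other calls named here are to be read with that in mind.

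**Figure D1:**
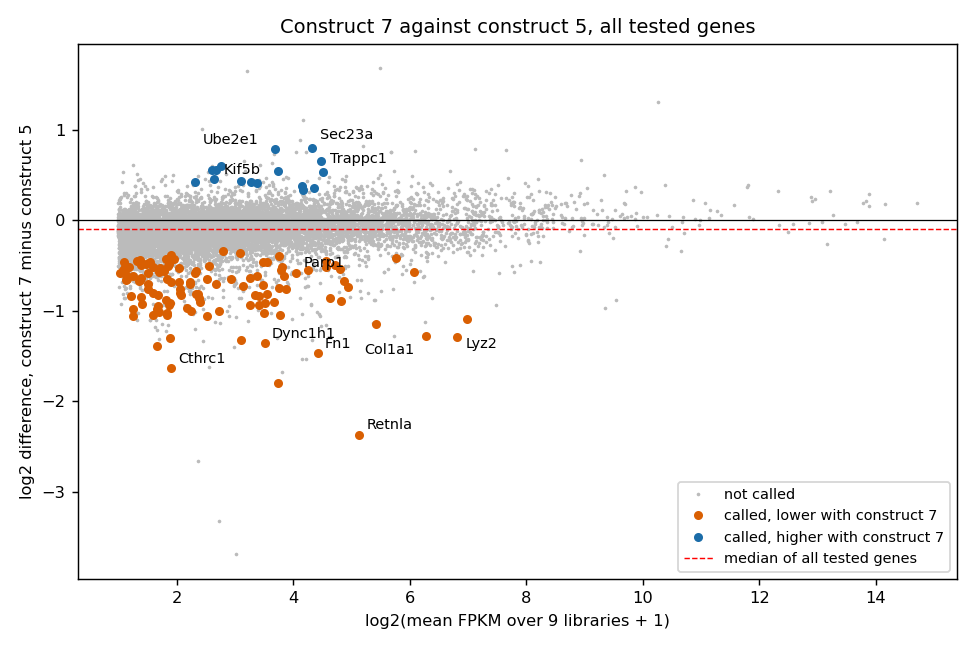
Each point is 1 of the 10794 tested genes, with log2 of its mean FPKM plus 1 on the horizontal axis and the log2 difference of construct 7 minus construct 5 on the vertical axis. Orange points are the 116 genes called lower with construct 7, blue points the 16 called higher, and the dashed line marks the median of all genes at −0.10, below 0.

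Of the 16 genes that rose with construct 7 relative to construct 5, 14 have gene names and are given here. Ube2e1, a ubiquitin-conjugating enzyme that hands ubiquitin to ligases, had the smallest p of all 132. It stood at 13.5, 13.4 and 13.1 FPKM in the controls, 8.03, 8.08 and 7.83 with construct 5, and 14.0, 14.9 and 14.4 with construct 7. Construct 5 libraries were far below the other 6, which lay close together, with those of construct 7 slightly the higher. The log2 difference was 0.78 ± 0.06 (SE), with an adjusted p of 0.00178, and in the settings tried it ranged from 0.76 to 0.98. Against the controls the log2 difference was −0.68 with construct 5, adjusted p = 0.00631, and 0.10 with construct 7, adjusted p = 0.618. Both of those comparisons use the same controls. Over all tested genes, construct 5 against controls called 569 (5.27%) and construct 7 against controls called 6 (0.0556%).

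Sec23a, a subunit of the COPII coat that buds vesicles from the endoplasmic reticulum, showed the largest rise. It read 12.66, 15.0004 and 13.42 FPKM with construct 5 and 27.3, 23.0 and 23.0 with construct 7, while the controls read 17.2, 19.2 and 21.3. The controls lay between the constructs without touching either. The difference was 0.79 ± 0.10 on the log2 scale, with an adjusted p of 0.0195. Trappc1, a subunit of the TRAPP complex that tethers vesicles at the Golgi, followed at 0.65 ± 0.09. Its libraries read 14.6, 17.1 and 16.0 FPKM with construct 5, 24.3, 25.2 and 27.3 with construct 7, and 21.97, 24.65 and 20.36 in the controls. Construct 5 was again the group that stood apart. Kif5b, the heavy chain of the conventional kinesin motor, read 9.89, 10.2 and 9.37 FPKM with construct 5 and 13.8, 14.6 and 16.0 with construct 7, a difference of 0.55 ± 0.09.

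Cul1, the scaffold of SCF ubiquitin ligases, averaged 16.4 ± 0.295 FPKM (SD, n = 3) with construct 5 and 21.3 ± 0.802 with construct 7, against 20.8 ± 0.801 in the controls. Rnf6, a RING-type ubiquitin ligase, averaged 7.96 ± 0.327 and 10.9 ± 0.366 FPKM with constructs 5 and 7. Ptpn11, the phosphatase SHP2 that acts below growth factor receptors, averaged 13.5 ± 1.25 and 17.9 ± 0.53 FPKM, with 19.2 ± 0.515 in the controls. Stt3b is a catalytic subunit of the enzyme that attaches sugars to new secretory proteins. It averaged 13.7 ± 0.346 FPKM with construct 5 and 17.6 ± 0.457 with construct 7, with the controls above both at 19.9 ± 1.08. Wbp2, Tulp4, Pldn, Hdhd2, Prdm4 and Fam122a rose too, by 0.53, 0.55, 0.45, 0.44, 0.42 and 0.42 on the log2 scale. All 14 of these named genes were also called after median-ratio scaling, where their differences were larger by about the shift of the whole distribution.

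Dync1h1, the heavy chain of the cytoplasmic dynein motor that carries cargo toward the cell centre, was the clearest single gene in the other direction. It stood at 10.4, 12.6 and 11.3 FPKM in the controls, 16.4, 14.3 and 13.4 with construct 5, and 4.23, 5.36 and 5.89 with construct 7. Every construct 7 library was below all others, and every construct 5 library was above all controls. The log2 difference was −1.36 ± 0.12 (SE), adjusted p = 0.00416, and it ranged from −1.51 to −1.13 in the settings tried. Against the controls it was 0.34 with construct 5, adjusted p = 0.1, and −1.02 with construct 7, adjusted p = 0.0277. Among 16 tested dynein and kinesin genes, Dync1h1 was the only member called lower and Kif5b the only member called higher. Of all tested genes, 1.07% were called lower and 0.148% higher. The dynein light chain gene Dynlrb1 read 26.4, 28.4 and 30.2 FPKM with construct 5 and 33.0, 39.7 and 37.3 with construct 7, which did not pass the test (adjusted p = 0.0652). The light chain gene Dynll1 differed the other way, by −0.43 ± 0.14, adjusted p = 0.134.

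Parp1 and Arhgap10 were lowest with construct 7. Parp1, which adds ADP-ribose chains to proteins at DNA breaks, read 16.2, 17.4 and 18.0 FPKM in the controls. It read 18.5, 18.1 and 17.1 with construct 5, and 11.6, 11.8 and 11.4 with construct 7. The control and construct 5 libraries overlapped, and all 3 construct 7 libraries lay well below them. The difference between constructs was −0.58 ± 0.06, adjusted p = 0.0119, and after median-ratio scaling it was −0.47, adjusted p = 0.0159. It was the only member called among 16 tested DNA repair and Parp genes, where 1.07% of all genes were called lower. The median difference of that list, −0.11, was close to that of all genes. The Parp1 relatives Parp2 and Parp4 differed by −0.15 and −0.20 and did not pass. Arhgap10 read 12.7, 13.5 and 14.6 FPKM with construct 5 and 7.03, 6.66 and 9.57 with construct 7, against 16.3, 16.4 and 16.4 in the controls. Its levels stepped down from control to construct 5 to construct 7 with no overlap. Its difference of −0.75 ± 0.11 had an adjusted p of 0.0256, and after median-ratio scaling it was −0.64 and not called, adjusted p = 0.0605.

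Csrp2, a LIM-domain protein of the cytoskeleton and nucleus, is named because it stayed called without library 1 or 3 of construct 7, a choice made after its values were seen. It read 4.43, 4.29 and 4.46 FPKM with construct 5, 1.92, 2.24 and 2.37 with construct 7, and 2.87, 2.95 and 3.09 in the controls. The 3 groups did not overlap, and the controls lay between. The difference was −0.76 ± 0.07, with an adjusted p of 0.00503.

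**Figure D2:**
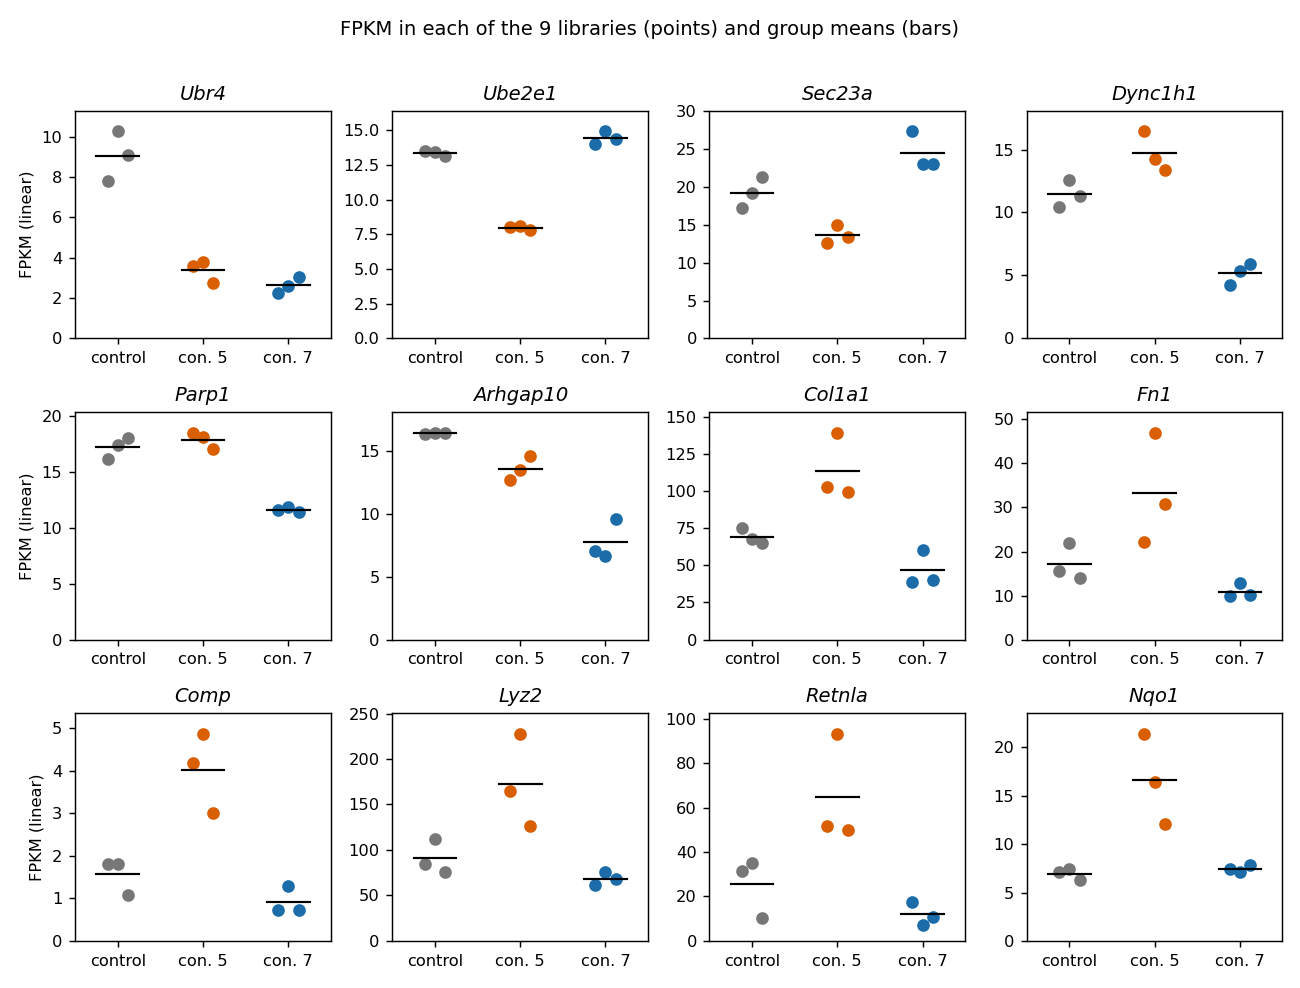
FPKM on a linear axis from 0 for 12 genes, with 1 point per library and a bar at each group mean, for controls (grey), construct 5 (orange) and construct 7 (blue). Ube2e1 and Sec23a are lowest with construct 5, Parp1 and Arhgap10 are lowest with construct 7, and Col1a1, Fn1, Comp, Lyz2, Retnla and Nqo1 are highest with construct 5; the Ubr4 values of both constructs overlap.

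Among the lists examined, that of fibroblast and extracellular matrix genes held the most genes that fell with construct 7 relative to construct 5. Muscle fibroblasts make this matrix, and its genes are commonly raised together after injury. Of its 30 tested genes, 11 were called lower and 0 higher, where 1.07% of all genes were called lower. All 30 had a difference below that of the median gene, 21 were separated by library in that direction, where 22.4% of all genes were, and the median was −0.80. After median-ratio scaling 5 of the 30 were called, where 0.38% of all genes were called lower, and the median was −0.69. Leaving out any single construct library kept the list's median between −0.86 and −0.66, while none of the 11 genes was called without library 1 or library 3 of construct 7.

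Among the fibrillar collagens, Col1a1, the α1 chain of type I collagen, read 75.2, 67.9 and 64.7 FPKM in the controls, 103, 139 and 98.9 with construct 5, and 38.9, 60.3 and 40.3 with construct 7. The controls fell between the constructs without overlap. The difference was −1.28 ± 0.18, adjusted p = 0.0201. Its partner chain Col1a2 read 54.7, 73.0 and 53.2 FPKM with construct 5 and 23.8, 31.9 and 24.5 with construct 7, a difference of −1.14 ± 0.14. Type III collagen, Col3a1, read 136, 244 and 148 FPKM with construct 5 and 70.6, 89.1 and 79.1 with construct 7, a difference of −1.09 ± 0.20. The type V chains Col5a1 and Col5a2, which nucleate collagen fibrils, fell by 0.81 and 0.93. The type VI chains Col6a1, Col6a2 and Col6a3, which form microfibrils around muscle fibres, were separated by library but did not pass, with differences of −0.63, −0.57 and −0.46.

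Glycoproteins and matrix enzymes showed the same order. Fn1, fibronectin, read 22.2, 47.0 and 30.7 FPKM with construct 5, 9.93, 12.75 and 10.02 with construct 7, and 15.66, 21.95 and 14.1 in the controls, a difference of −1.47 ± 0.25. Postn, periostin, a matrix protein of injured and fibrotic tissue, read 18.9, 19.6 and 25.1 FPKM with construct 5 and 2.51, 10.6 and 5.29 with construct 7, a difference of −1.79 ± 0.35. Its control values of 9.58, 11.7 and 8.26 overlapped those of construct 7 and lay below all of construct 5. Lox, which crosslinks collagen, differed from that pattern. It read 3.83, 3.07 and 3.29 FPKM with construct 5 and 3.23, 2.49 and 2.57 in the controls, which overlapped, and 1.48, 1.39 and 1.26 with construct 7. Its difference was −0.88 ± 0.10, adjusted p = 0.0119. The proteinase genes Mmp2 and Mmp14 fell by 0.89 and 1.05, and thrombospondin gene Thbs2 by 0.91. Cthrc1, a secreted protein of activated fibroblasts, read 3.49, 4.97 and 5.67 FPKM with construct 5 and 0.509, 1.28 and 0.737 with construct 7. That was a difference of −1.63 ± 0.22. As with Lox, its control values of 2.81, 3.62 and 1.78 overlapped those of construct 5 and lay above all of construct 7. The abundant small proteoglycan Dcn and the actin-severing Gsn, also on the list, differed by −0.30 and −0.18 and did not pass.

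Because these genes fell in the same libraries, the 250 bases before their start sites were read from RefSeq (GRCm38.p6) and searched for CCAAT, the box bound by the NF-Y factor, on both strands. Of 14 called matrix and tendon genes, 7 had a promoter entry and 4 of those held the letters. The windows of 3 are printed here in lower case, 5′ to 3′ along the gene, with CCAAT or its reverse complement ATTGG in capitals. The Col1a2 window is chr6:4505368-4505617 (plus strand), with its box 109 bases before the start. The Mmp14 window is chr14:54431348-54431597 (plus strand), with boxes 69 and 23 bases before the start, both on the opposite strand. The Thbs2 window is chr17:14694263-14694512 (minus strand), with boxes 186 and 144 bases before the start.
Col1a2: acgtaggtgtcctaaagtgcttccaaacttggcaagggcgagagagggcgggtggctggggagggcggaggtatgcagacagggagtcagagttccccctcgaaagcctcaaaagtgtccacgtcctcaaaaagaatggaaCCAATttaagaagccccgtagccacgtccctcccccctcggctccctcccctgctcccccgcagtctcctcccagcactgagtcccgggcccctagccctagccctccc
Mmp14: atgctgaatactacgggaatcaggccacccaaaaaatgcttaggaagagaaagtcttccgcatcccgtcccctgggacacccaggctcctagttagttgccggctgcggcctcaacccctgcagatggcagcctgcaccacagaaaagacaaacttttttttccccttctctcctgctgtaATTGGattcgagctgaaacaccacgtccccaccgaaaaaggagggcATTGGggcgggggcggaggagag
Thbs2: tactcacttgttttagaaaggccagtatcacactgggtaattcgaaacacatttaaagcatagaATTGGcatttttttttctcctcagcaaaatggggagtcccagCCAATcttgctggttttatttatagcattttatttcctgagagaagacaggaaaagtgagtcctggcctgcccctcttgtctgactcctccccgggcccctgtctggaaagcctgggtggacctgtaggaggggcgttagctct
The letters are common: 33.8% of all 32851 promoter entries held them, as did 40.4% of the 7192 tested genes with an entry and 29 of 76 called-lower genes with an entry (38.2%). A match describes the letters in the window and does not show binding.

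Tendon and cartilage genes had the lowest median of the lists with at least 5 tested genes. On this list, 3 of 10 tested genes were called lower (1.07% of all genes), all 10 were below 0 (75.5% of all genes) and 8 were separated by library, lower with construct 7 (22.4% of all genes). The median was −1.08, or −0.99 after median-ratio scaling. On that scale 1 was called, where 0.38% of all genes were called lower. Comp, a matrix protein of tendon and cartilage, read 4.19, 4.87 and 3.00 FPKM with construct 5, 0.725, 1.29 and 0.737 with construct 7, and 1.80, 1.81 and 1.08 in the controls. The construct 5 libraries stood above the other 6, with a difference of −1.38 ± 0.18, adjusted p = 0.0195. Kera, the proteoglycan keratocan, and Prg4, the lubricant lubricin, fell by 1.06 and 0.60. Fmod, the collagen-binding fibromodulin, narrowly missed at −1.54 ± 0.31, adjusted p = 0.0525, and the tenocyte gene Tnmd read 14.5, 9.83 and 10.9 FPKM with construct 5 and 2.23, 8.38 and 2.59 with construct 7. Scx, the transcription factor that defines tendon cells, differed by −0.41, and its ranges overlapped.

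The tendon genes were uneven among the libraries. Their summed FPKM was 201, 133 and 145 with construct 5, 43.0, 119 and 52.5 with construct 7, and 83.6, 78.2 and 59.9 in the controls. Library 2 of construct 7 stood well above the other libraries with that construct, and leaving it out moved the median to −1.44. How much tendon was taken with each muscle was not tested.

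Macrophage genes were also higher with construct 5. Macrophages enter injured muscle to clear debris and to direct repair. Of 21 tested genes on the list, 4 were called lower with construct 7 (1.07% of all genes) and 0 higher, all 21 were below the median gene, and 11 were separated by library in that direction (22.4% of all genes). The median was −0.92, or −0.80 after median-ratio scaling. On that scale only Lyz2 was called, where 0.38% of all genes were called lower. Lyz2, the lysozyme of myeloid cells, read 84.6, 112 and 76.1 FPKM in the controls, 165, 228 and 127 with construct 5, and 61.5, 75.4 and 68.1 with construct 7. The groups did not overlap, with the controls in between, and the difference was −1.29 ± 0.21, adjusted p = 0.0325. Ccl6, a chemokine, read 12.2, 17.7 and 8.36 FPKM with construct 5 and 4.90, 3.78 and 4.18 with construct 7, a difference of −1.33 ± 0.26. Cd14, a receptor for bacterial lipopolysaccharide, fell by 0.67 and Gpnmb, a glycoprotein of lipid-laden macrophages, by 1.03. The general markers Csf1r, Cd68 and Emr1 differed by −0.75, −0.85 and −0.64 without passing.

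Retnla, a small secreted protein made by alternatively activated macrophages and by some stromal cells, had the largest difference of any called gene. It read 31.7, 34.9 and 10.3 FPKM in the controls, 51.7, 93.1 and 49.98 with construct 5, and 17.7, 7.35 and 10.8 with construct 7. Construct 5 libraries were above all others, and the controls and construct 7 overlapped. The difference was −2.37 ± 0.46, adjusted p = 0.0475, close to the threshold, and it was called in 5 of the 27 alternative settings.

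Library 2 of construct 5 stood apart in its immune markers. The 11 neutrophil genes summed to 44.2 FPKM there and to between 0.596 and 2.02 in the other 8 libraries. S100a9, a calcium-binding protein abundant in neutrophils, read 17.9 FPKM in that library and 0.0593 to 0.498 in the rest. The same library had the highest summed level of the macrophage list, 669 FPKM against 509 and 365 in the others with construct 5, and of the matrix list, 1583 FPKM against 1050 and 1080. Construct 7 libraries summed to 198, 296 and 216 FPKM for macrophage genes and 721, 744 and 770 for matrix genes. Controls summed to 262, 331 and 230 and to 892, 1015 and 867. With that library left out, the median difference was −0.70 for the macrophage list and −0.66 for the matrix list. The complement and acute phase genes, which macrophages and fibroblasts also express, were all 10 below 0 (75.5% of all genes). Of these, 0 were called, where 1.07% of all genes were called lower. Their median moved from −0.76 to −0.45 without library 2 of construct 5. The part of immune cells in the other differences was not tested. Endothelial genes, by contrast, had a median of −0.10 over 16 tested members, close to that of all genes. Of these, 0 were called and 0 separated by library, where 1.22% and 25.4% of all genes were in either direction.

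**Figure D3:**
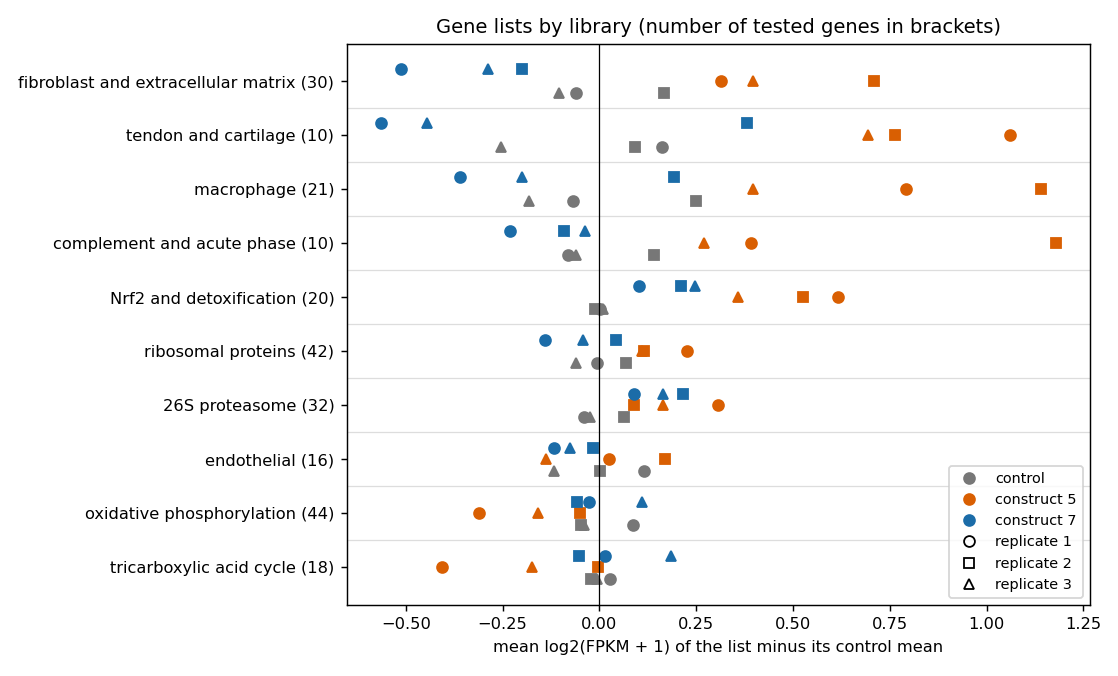
For 10 gene lists, each point is the mean log2(FPKM + 1) of the list's tested genes in 1 library minus the mean over the 3 controls. Matrix, tendon, macrophage and complement genes are higher in all construct 5 libraries than in any construct 7 library, construct 5 library 2 (square) is highest for macrophage genes, and endothelial and proteasome genes overlap.

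Nrf2 targets, which detoxify reactive compounds, held 1 called gene of 20, lower with construct 7, where 1.07% of all genes were called lower. Nqo1, a quinone reductase, read 7.12, 7.39 and 6.26 FPKM in the controls, 21.4, 16.5 and 12.1 with construct 5, and 7.42, 7.14 and 7.83 with construct 7. Construct 7 libraries lay within or just above the control range, and all construct 5 libraries were above it. The difference between constructs was −1.03 ± 0.16, adjusted p = 0.0305, and it was called after median-ratio scaling too, at −0.92. Srxn1 differed by −0.57 ± 0.15, Akr1b8 by −0.71 ± 0.19 and Gclm by −0.35 ± 0.08, and none of these passed. The list's median was −0.25, and 10 of the 20 were separated by library in that direction, where 22.4% of all genes were. Anxa1, an annexin of membrane repair and inflammation, was the only call of 12 in its list, where 1.07% of all genes were called lower. It read 11.9, 15.6 and 9.50 FPKM with construct 5 and 4.84, 6.91 and 6.00 with construct 7.

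Stress and repair genes of other kinds were lower on the median with construct 7. They held no called gene, where 1.07% of all genes were called lower. The median was −0.63 over 14 genes of regenerating and embryonic muscle, −0.33 over 21 endoplasmic reticulum stress genes and −0.35 over 22 genes of double-stranded RNA sensing and interferon response. Myh3, the embryonic myosin heavy chain, read 8.61, 7.14 and 8.12 FPKM with construct 5 and 0.684, 7.19 and 2.23 with construct 7. Library 2 of construct 7 thus lay within the range of construct 5. Myog and Myod1, which drive myoblast differentiation, differed by −0.66 ± 0.27 and −0.60 ± 0.27 with overlapping libraries. Pdia3, a folding enzyme of the endoplasmic reticulum, averaged 27.9 ± 2.95 FPKM with construct 5 and 20.1 ± 2.34 with construct 7. Hsp90b1, its chaperone neighbour, averaged 34.7 ± 5.00 and 27.2 ± 0.979. Neither passed, with adjusted p of 0.064 and 0.0998. Of the interferon-responsive genes, Stat2 read 4.21, 3.24 and 2.08 FPKM with construct 5 and 1.89, 2.42 and 1.44 with construct 7, which overlap. On that list 0 of the 22 were separated by library, where 25.4% of all genes were in either direction.

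Genes of mitochondrial energy production leaned the other way. These encode the respiratory chain, the tricarboxylic acid cycle that feeds it and the enzymes that burn fatty acids and branched-chain amino acids. None was called, where 0.148% of all genes were called higher. Of all tested genes, 75.5% had a difference below 0. By contrast, all 44 tested oxidative phosphorylation genes and all but 1 of 18 cycle genes had a difference above 0. Their medians were 0.19 and 0.27 as deposited and 0.31 and 0.39 after median-ratio scaling. As deposited, 12 of the 44 and 6 of the 18 were separated by library, higher with construct 7, where 3.02% of all genes were. After median-ratio scaling these became 36 and 14, where 11.5% of all genes were. The median was 0.21 over 23 fatty acid genes and 0.17 over 17 genes of branched-chain amino acid breakdown. For 13 regulators of mitochondria it was −0.01, or 0.05 after median-ratio scaling. Leaving out library 1 of construct 5, which had the lowest respiratory and cycle sums, moved the medians to 0.10 and 0.17 for respiratory and cycle genes and to 0.05 for fatty acid genes.

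Individual values show the size. Atp5b, the catalytic β subunit of ATP synthase, read 677, 827 and 718 FPKM with construct 5, 904, 899 and 978 with construct 7, and 843, 835 and 828 in the controls. Construct 7 lay above the controls and construct 5 below them, and the difference of 0.33 ± 0.09 did not pass, adjusted p = 0.0867. Cox4i1, a subunit of cytochrome c oxidase, read 784, 956 and 852 FPKM with construct 5, 1038, 1050 and 1109 with construct 7, and 1125, 1031 and 1032 in the controls. Here construct 7 and control libraries overlapped. Ogdh, an enzyme of the cycle, and Slc25a20, which brings acylcarnitines into mitochondria, differed by 0.38 ± 0.13 and 0.50 ± 0.16. Mccc2, a carboxylase subunit of leucine breakdown, came nearest to the threshold at 0.74 ± 0.15, adjusted p = 0.0549. It read 6.05, 10.3 and 7.49 FPKM with construct 5 against 14.6, 12.6 and 13.6 with construct 7. Its controls read 13.8, 12.1 and 14.9. Bckdhb, a subunit of the complex that commits branched-chain acids to breakdown, went against its list at −0.45 ± 0.11, adjusted p = 0.07.

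Protein synthesis and proteasome genes held no call, where 1.22% of all genes were called in either direction. Ribosomal protein genes had a median of −0.19 over 42 genes, with 32 separated by library, lower with construct 7, as deposited (22.4% of all genes). After median-ratio scaling 4 were (9.98% of all genes), and the median was −0.07. Ribosome biogenesis genes had a median of −0.15 over 24 and −0.04 after scaling. The 32 proteasome genes had a median of −0.04 as deposited and 0.08 after median-ratio scaling, so the sign depended on the scale. Of these genes, 0 were separated by library as deposited, and 7 were after scaling, higher with construct 7 (11.5% of all genes). The 13 members of the Ubr4 and N-degron list, Ubr4 included, had 0 calls (1.22% of all genes) and a median of −0.05, or 0.07 after scaling.

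**Figure D4:**
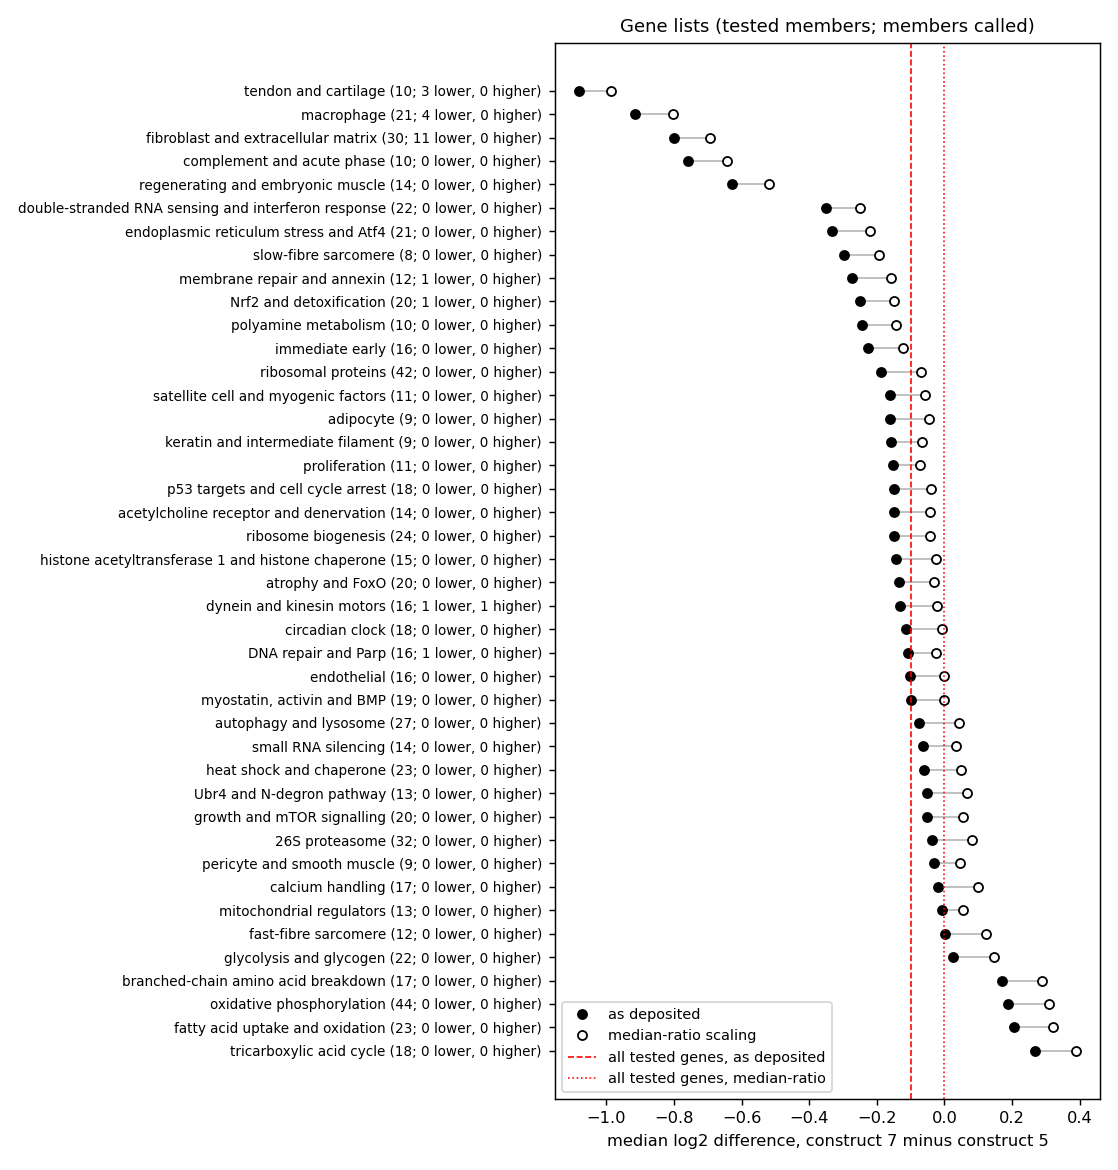
Median log2 difference of construct 7 minus construct 5 for each list with at least 5 tested genes, as deposited (filled) and after median-ratio scaling (open), with the number of tested and called genes beside each name. Tendon, macrophage and matrix lists lie lowest, at −1.08, −0.92 and −0.80, and lists of mitochondrial energy production lie highest, up to 0.27. Mitochondrial regulators lie at −0.01, and the red lines mark all genes on each scale.

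Genes that an earlier account of these data named against the controls were compared between constructs as well. Smox, spermine oxidase of polyamine breakdown, read 101, 89.4 and 84.0 FPKM in the controls, 45.6, 33.5 and 54.5 with construct 5, and 32.3, 30.0 and 39.1 with construct 7. Both constructs were below all controls and overlapped each other, and the difference was −0.37 with a 95% interval from −0.74 to 0.00. Cdkn1a, an inhibitor of the cell cycle, read 20.3, 19.7 and 15.3 FPKM with construct 5 and 8.76, 25.8 and 17.1 with construct 7, against 5.43, 6.92 and 6.36 in the controls. The construct 7 libraries spanned the whole range of construct 5, so the interval of the difference was wide, from −0.87 to 0.47. Sln, which slows the muscle calcium pump, read 117, 42.7 and 39.6 FPKM with construct 5 and 45.1, 100 and 24.3 with construct 7, with an interval from −1.60 to 1.05. Krt8, a keratin, differed by −0.57 with an interval from −1.43 to 0.30. Rrad, a GTPase that restrains calcium channels, differed by −0.41 with an interval from −1.18 to 0.36. Aldh3a1, an aldehyde dehydrogenase, read 4.54, 6.44 and 6.53 FPKM with construct 5 and 4.19, 4.72 and 16.2 with construct 7. For Cdkn1a, Sln, Krt8 and Rrad the intervals hold differences in both directions, and the data do not show that the constructs act alike. Hat1, a histone acetyltransferase, and its partners Rbbp4 and Rbbp7 gave narrower intervals, from −0.22 to 0.17, −0.22 to 0.12 and −0.30 to 0.01. The intervals of Gadd45a, Lgals3 and Anp32e lay below 0, from −1.06 to −0.12, −1.59 to −0.24 and −0.50 to −0.11. None of these passed in limma (adjusted p of 0.151, 0.132 and 0.101). For Obfc2a the interval ran from −0.07 to 0.62. Ube2e1, Dync1h1, Arhgap10, Parp1 and Nqo1, also named in that account, were called between the constructs and are given above.

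The control libraries place the called differences on the side of one construct or the other, as a description without a test. In 66 of the 132 called genes (50%) every control lay on the construct 7 side of every construct 5 library while overlapping or passing construct 7. In 16 (12.1%) the controls lay in the same way on the construct 5 side of construct 7, in 50 (37.9%) they lay between the constructs without overlap, and in 0 did none of these hold. Over all tested genes the same shares were 34.5%, 8% and 0.945%, and in 56.5% none held. A place between the constructs needs libraries that do not overlap, which held for all 132 called genes and for 25.4% of all tested genes. The gap between these shares therefore follows in part from how genes were called. The control mean was nearer to construct 7 in 108 (81.8%), where this held for 71.7% of all tested genes. It was nearer to construct 7 in all 16 genes called higher, where this held for 49.5% of all tested genes with a difference above 0, and in 92 of the 116 called lower (79.3%). Of all tested genes that were lower with construct 7, called or not, the control mean was nearer to construct 7 in 79%, so the called-lower genes were close to that background. The 16 genes with controls on the construct 5 side of construct 7 included Parp1, Lox, Cthrc1, Col3a1 and Cd14, all lower with construct 7. Arhgap10 was also among them, and in it construct 5 libraries too were below every control.

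The same can be read from the lists. The median log2 difference from the controls was 0.43 with construct 5 and −0.36 with construct 7 for the matrix list, 0.78 and −0.12 for the macrophage list, and 0.96 and −0.20 for the tendon list. On the median, matrix genes were above the controls with construct 5 and below them with construct 7 by similar amounts, and the macrophage and tendon genes were mainly above them with construct 5. Both comparisons use the same 3 controls, and the difference between lists was not tested. Over the genes called lower, the median level relative to the control mean was 0.40, 0.58 and 0.36 in the construct 5 libraries and −0.33, −0.18 and −0.25 in the construct 7 libraries. Over the genes called higher it was −0.47, −0.34 and −0.48 with construct 5 and 0.07, 0.11 and 0.06 with construct 7. Over all tested genes it was 0.169, 0.136 and 0.0728 with construct 5 and 0.0219, 0.0246 and 0.0165 with construct 7. That shift of all genes also bears on the list medians above. Called genes were chosen by the difference between these same libraries, so the order of the constructs in them follows from that choice.

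**Figure D5:**
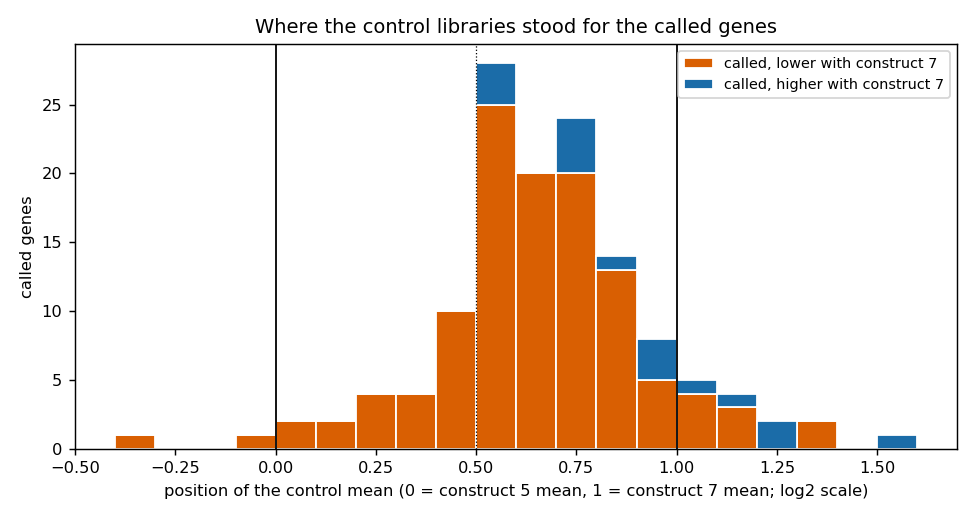
Histogram of the 132 called genes by where the control mean lay on the log2 scale between the construct 5 mean (0) and the construct 7 mean (1), stacked by direction. Most genes lie between 0.5 and 1, nearer to construct 7, and all 16 genes called higher (blue) lie at 0.5 or above.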

How the data were processed

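RNA-seq of 9 mouse tibialis anterior samples was analysed from 1 table of FPKM values for 23231 genes, which the authors deposited. The submitters' processing notes name BWA, STAR, HTSeq and the mm9 build, without versions; roles, filters and annotation are not given in the sources used here. Samples were grouped by title. Log2(FPKM + 1) was fitted with limma 3.58.1 in R 4.3.3 with a trended spread over all 9 libraries, and construct 7 was contrasted with construct 5 in the 10794 genes with a mean of at least 1 FPKM. P-values were adjusted by the Benjamini-Hochberg method, and adjusted p under 0.05 was called. The pseudocount makes fold changes of low genes too small. Described genes were picked from Ubr4, up to 15 of the largest called changes in each direction with a gene name, and genes an earlier account named. Also picked were up to 4 members with the smallest p of each list that held a call or whose median lay 0.2 or more from that of all genes. Where such a list was of a cell type, its 2 members with the highest FPKM were added. Not every picked gene is described. Fkbp11 and Thbs3, called lower at −1.30 and −1.05, are among those left out. The groups compared and the 47 gene lists were chosen with earlier results of these data known. Further genes named beside these came from the lists after their values were seen.

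Read depth was estimated from the spacing of small FPKM values, with gene lengths from GENCODE M21. Of 51716 values under 50 reads, 72.8% were whole reads within 0.1, so counts were used only as an alternative. The test was checked on simulated data. No 2 libraries held identical values. Promoter windows came from RefSeq (GRCm38.p6). Alternatives covered the pseudocount, the low-value filter, scaling, the libraries fitted, weights, the replicate block, each library left out, and voom on recovered reads. Of these 27 settings, 7 were added after seeing the data: each construct library left out together with median-ratio scaling, and voom with median-ratio scaling.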

Additional observations from a re-analysis of the deposited data

How the results depend on the processing

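The size of the result moved with many choices; the cause was not tested. Against 132 called genes (16 higher, 116 lower with construct 7), no filter on low values gave 10 (2 and 8), a filter at a mean FPKM of 5 gave 48 (37 lower), median-ratio scaling 79 (38 and 41), quantile normalization 60 (30 and 30), the 6 construct libraries alone 23 (4 and 19), and weights per library 201 (29 higher). Leaving out each library in turn gave 3 to 387 called genes, 1 to 40 higher and 2 to 347 lower. With median-ratio scaling as well, leaving out construct 5 libraries 1, 2 and 3 gave 19, 27 and 3 genes (5, 16 and 1 higher, 14, 11 and 2 lower), and construct 7 libraries 1, 2 and 3 gave 2, 226 and 6 (1, 72 and 3 higher, 1, 154 and 3 lower). Voom on recovered reads called 139 genes, of which 120 were among the 132, and with median-ratio scaling it called 56 higher and 61 lower. With the replicate number as a block, 217 genes were called, 206 of them lower, and 115 were among the 132. Deviations of same-numbered libraries of the constructs correlated at 0.0508, −0.0647 and 0.261, and those of differently numbered libraries at −0.373 to 0.245. With 3 libraries in a group these values cannot decide whether the numbers pair the libraries, and the labels do not say.

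The median of all genes, −0.0994, became −0.0417 with no filter, −0.0015 with median-ratio scaling, 0.0185 with quantile normalization and −0.00218 with voom and median-ratio scaling. With single libraries left out it ran from −0.125 to −0.0741. With median-ratio scaling as well it was 0.00186, −0.00191 and 0.00159 without construct 5 libraries 1, 2 and 3, and −0.00104, −0.00157 and −0.00414 without those of construct 7. The share of called genes with the control mean nearer to construct 7, 81.8%, was 70% with no filter and 88% with the replicate block, and ran from 50% to 91.4% with single libraries left out. With median-ratio scaling as well it was 63.2%, 74.1%, 66.7%, 50%, 71.7% and 50% in the same order of libraries. Ubr4 was called in 0 of the 27 settings, with adjusted p from 0.125 to 0.774 and a difference below 0 throughout.

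Some uncalled genes changed sign. Hat1 became 0.078 with median-ratio scaling, 0.101 with quantile normalization, 0.0074 with weights and 0.0903 with voom and median-ratio scaling. It ran from −0.0898 to 0.0178 with single libraries left out, and with median-ratio scaling as well it was 0.0803, 0.118, 0.0414, 0.119, 0.0715 and 0.043. Rbbp4 became 0.0544 with median-ratio scaling, 0.056 with quantile normalization and 0.0615 with voom and median-ratio scaling, and 0.0579, 0.0518, 0.0593, 0.108, 0.0055 and 0.0489 with a library left out too. Pmp22 became 0.0061 with median-ratio scaling. With single libraries left out, Pmp22 ran from −0.234 to 0.0808, Sln from −0.796 to 0.22, Gsn from −0.378 to 0.121, S100a8 from −1.83 to 0.048, Cdkn1a from −0.539 to 0.19, Aldh3a1 from −0.315 to 0.552 and Mbp from −0.0084 to 0.355. With median-ratio scaling as well, the changed signs were Pmp22 at 0.188, 0.0582 and 0.0793, Sln at 0.312 and 0.317, Gsn at 0.187 and 0.239, S100a8 at 0.0728, Cdkn1a at 0.309, Aldh3a1 at −0.218, Rbbp7 at 0.0092 and 0.0073, Krt8 at 0.0761 and Rrad at 0.0934.

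Depth differed at most 1.55-fold between libraries and limits genes near 1 FPKM most. With 3 libraries in a group, the spread of each gene is poorly known, and libraries of the same group differed in their immune and tendon markers.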

Other observations

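Blood and lymphocyte genes are described here as values. The 4 tested haemoglobin genes summed, with the other erythroid genes, to 216, 419 and 179 FPKM with construct 5 and 364, 321 and 302 with construct 7, so library 2 of construct 5 was again the highest, and the controls spanned 200 to 313. Their median difference was 0.36 with 0 called, where 0.148% of all genes were called higher. Ighm, the heavy chain of immunoglobulin M, read 8.20, 14.9 and 8.74 FPKM with construct 5, 17.5, 22.5 and 14.8 with construct 7, and 26.9, 17.5 and 27.6 in the controls; the difference between constructs of 0.75 ± 0.24 did not pass, adjusted p = 0.127. Ebf1, the only other tested gene of the B and plasma cell list, went the opposite way. It read 24.5, 24.1 and 22.2 FPKM with construct 5 and 17.8, 15.4 and 19.7 with construct 7. Its controls read 20.7, 21.0 and 19.3. The difference of −0.41 ± 0.09 did not pass in limma either, adjusted p = 0.0627. None of the 12 T and natural killer cell genes reached a mean of 1 FPKM.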
